A study of Homo sapiens
Mus musculus with 6 samples.

Results

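The HOX genes of human HEK293-Flp-In cells were read in RNA sequencing data of 6 co-culture wells. The members were the human table's entries named HOXA, HOXB, HOXC or HOXD plus a number, which gave 39 genes of the table's 23855 entries. Of these, 34 had at least 30 reads over the 6 wells: 10 of 11 HOXA, 8 of 10 HOXB, 8 of 9 HOXC and 8 of 9 HOXD genes. Each well held 1 human line and 1 mouse line for 6 h, and the reads of each species were deposited in a table of their own. The human lines were HEK-Jag1Ndr, which carries the Nodder missense form of the Notch ligand Jag1, HEK-Jag1WT, which carries the wild-type form, and HEK-control. The mouse lines were C2C12-Notch1, a myoblast line with full-length Notch1, and the C2C12-control line. Every combination had 1 well, so that each HEK line was read in 2 wells and each C2C12 line in 3.

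In every well the C2C12 cells were given 8 h to settle, were transfected with 1.6 ug of the plasmid pcDNA5, and met the HEK cells 18 h later. The Jag1 lines were kept under hygromycin, the HEK-control line was not, and the C2C12-Notch1 line was kept under puromycin, per the labels. Each HEK line is a single line that was placed in both of its wells. An effect of Jag1, of drug selection and of a difference between lines that predates the co-culture cannot be told apart from these wells. All wells were on 1 plate and no label names cultures grown apart. The p-values given here therefore set a difference between lines against a spread between these wells, and that spread may be technical.

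HOX genes encode homeodomain transcription factors that give cells a position along the body axis. In mammals they lie in 4 clusters, and the paralogue number follows the gene's place in its cluster: low numbers mark anterior genes, used towards the head, and high numbers posterior genes, used towards the tail, the limb tips and the urogenital tract. Polycomb proteins keep HOX genes silent and Trithorax proteins keep them active, while PBX, MEIS and PKNOX proteins bind DNA together with HOX proteins. HEK293 cells were made from human embryonic kidney, an organ whose formation in the mouse needs Hox genes of paralogue group 11. HOXA lies on chromosome 7, HOXB on 17, HOXC on 12 and HOXD on 2, as RefSeq places them in GRCh38.p14.

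Human reads per well ranged from 4081452 to 10292878, and the HOX genes together took 18634 of them, or 481.2 CPM (a gene's reads scaled to the well's total of human reads; values of single genes in single wells also carry edgeR's TMM factor). Reads on the mouse Jag1 gene stood at 9448 and 8878 CPM of human reads in HEK-Jag1Ndr wells, 8701 and 8221 in HEK-Jag1WT wells, and 27.2 and 26.95 in HEK-control wells, which fits the labels. Of 12 HEK marker genes, 9 had a mean of at least 1 RPKM (the authors' reads scaled to depth and to gene length), with a median of 16.0 RPKM; NEFM, STMN2 and SALL4 were below 1. Of 14 C2C12 markers, 6 reached 1 RPKM in the human table, MYF5 and MYOG were at 0, and the median was 0.389 RPKM. The summed level of the C2C12 markers was 285.9 and 310.5 RPKM in HEK-Jag1Ndr wells, 257.5 and 290.0 in HEK-Jag1WT wells, and 251.0 and 236.8 in HEK-control wells. VIM, which is not particular to muscle, made up 253.5 and 272.5 RPKM of this in HEK-Jag1Ndr wells, 241.1 and 270.5 in HEK-Jag1WT wells, and 220.5 and 205.0 in HEK-control wells. The muscle markers DES and MYOD1 averaged 0.209 and 0.145 RPKM, but CDH15 averaged 1.18. ACTA2, COL1A1, TAGLN and COL3A1 averaged 19.0, 3.06, 2.64 and 1.06 RPKM. ACTA2 had 21.4 and 26.0 RPKM in HEK-Jag1Ndr wells, 9.30 and 12.2 in HEK-Jag1WT wells, and 22.5 and 22.5 in HEK-control wells. COL3A1 had 2.36 and 2.35, 0.136 and 0.124, and 0.506 and 0.874 in the same order. Whether mouse reads are part of these levels was not tested. Throughout, the first value of a line comes from its well with C2C12-Notch1 and the second from its well with C2C12-control.

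All 4 clusters were read in all 3 HEK lines, and in every cluster the member with the highest level per length was posterior. HOXB9, which helps to pattern the ribs in the mouse, had the highest mean of all members, 35.7 ± 6.04 RPKM (SD, n = 6 wells). HOXA10, known for its role in the uterus, followed with 30.3 ± 1.85 RPKM. The 2 ranges overlapped, from 28.6 to 45.7 RPKM for HOXB9 and from 27.2 to 32.1 for HOXA10, so their order rests within the spread of the wells. HOXD13, a gene of the digits, led the HOXD cluster with 21.3 ± 2.74 RPKM, and HOXC13, a gene of hair and nails, led HOXC with 6.13 ± 0.851 RPKM. Their ranges did not overlap with each other, at 17.8 to 26.2 RPKM for HOXD13 and 4.72 to 7.31 for HOXC13.

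Below these leaders, HOXB2 was the only anterior gene above 10 RPKM, with a mean of 18.8 ± 2.25 RPKM. HOXB2 acts in segments of the hindbrain. HOXD11, HOXA11 and HOXA9 had means of 14.0, 12.0 and 11.2 RPKM, and HOXA5, which acts in the lung and the neck vertebrae of the mouse, had 10.6 RPKM. Of the members with at least 30 reads, HOXD1 and HOXA2 had the lowest means, 0.899 and 0.691 RPKM. By reads, HOXB took 36.6% of the HOX total, HOXA 30.3%, HOXD 22.5% and HOXC 10.5%.

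**Figure D1:**
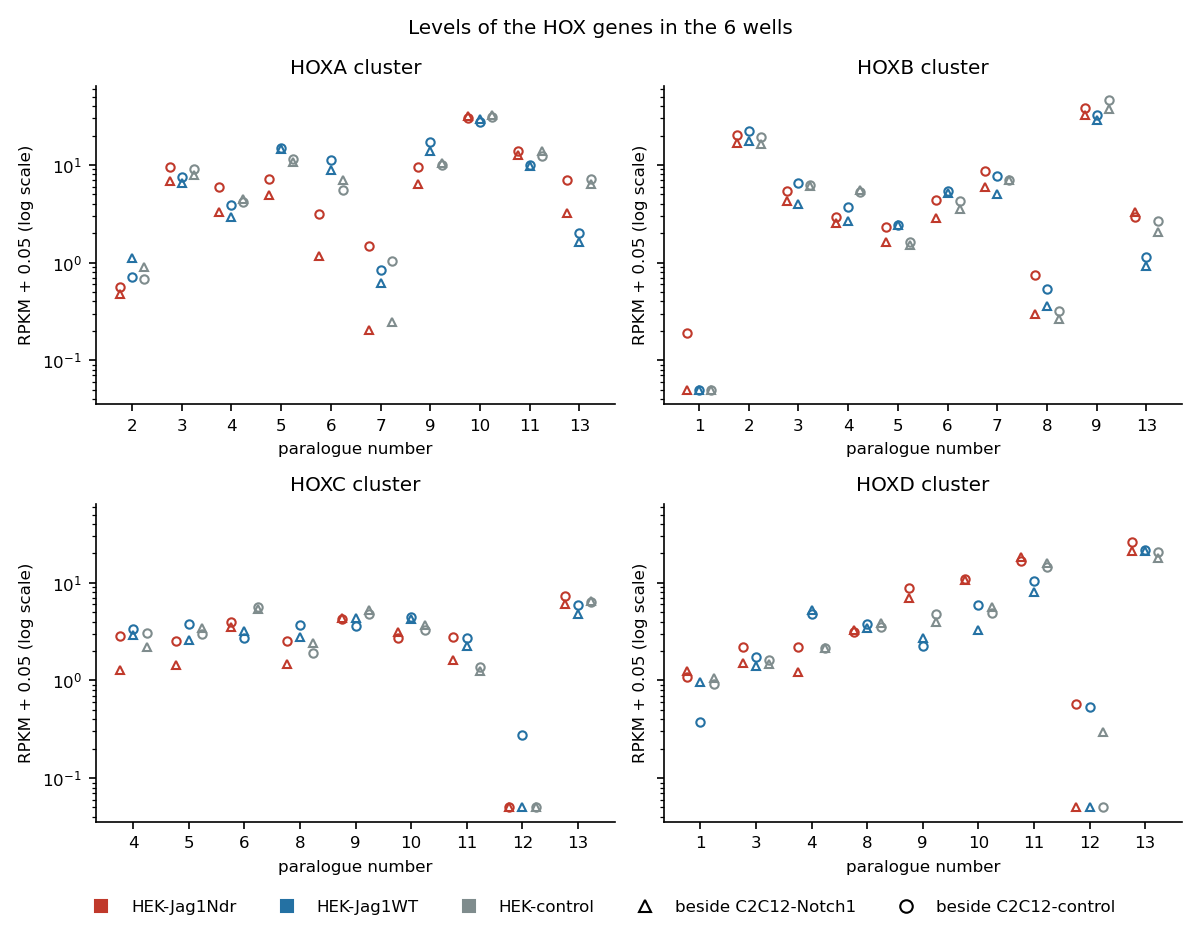
Level of each HOX gene shown, in each of the 6 wells, as the authors' RPKM plus 0.05 on a log axis, by cluster and paralogue number; colour marks the HEK line and symbol the C2C12 partner. HOXB9, HOXA10, HOXD13 and HOXC13 lead their clusters, while HOXB1, HOXC12 and HOXD12 lie at or near 0.

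Single members had few reads although their neighbours were read. HOXB1 and HOXC12 had 1 read each over the 6 wells, HOXD12 had 7, HOXA7 13 and HOXB8 26. HOXA2, with 49 reads, lay just inside the limit of 30 reads. HOXD12 stands between HOXD11 and HOXD13, which had 813 and 1888 reads. HOXB8 stands between HOXB7 and HOXB9, with 360 and 3699 reads. HOXC12 stands between HOXC11, with 150 reads, and HOXC13, with 537. A limit of 10 reads would count 36 members and a limit of 100 reads 32.

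Some of these levels cannot be assigned to 1 gene alone, because the library kit is of a kind that does not mark strand and gene models overlap in RefSeq. HOXC4, HOXC5 and HOXC6 overlap each other, HOXD3 overlaps HOXD4, HOXB3 overlaps HOXB4, HOXA3 overlaps HOXA4, HOXA5 and HOXA6, and HOXC11 overlaps the antisense RNA HOTAIR. HOXA5, HOXA6 and HOXA7 also overlap HOXA-AS3, and HOXB5 and HOXB6 overlap HOXB-AS3. HOXA9 and HOXA10 overlap the entry HOXA10-HOXA9, and HOXA10 also overlaps HOXA10-AS. HOXB2 overlaps HOXB-AS1, HOXC10 overlaps HOXC-AS3, HOXC13 overlaps HOXC13-AS and HOXD8 overlaps LOC100129455. In RefSeq's GRCh38.p14 extents no overlapping gene was found for HOXA11, HOXA13, HOXB7, HOXB9, HOXB13, HOXC8, HOXC9 or HOXD9 to HOXD13. The submitters' notes name hg19, whose gene models were not compared. The gene length that the deposited reads and RPKM imply was not fixed for every gene. It ran from 1703 to 2590 bases between wells for HOXD8 and from 1008 to 1122 bases for HOXA10.

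The HOX total, which was given no test, was 440.3 and 541.1 CPM in HEK-Jag1Ndr wells, 417.5 and 473.5 in HEK-Jag1WT wells, and 486.3 and 523.8 in HEK-control wells, so both HEK-Jag1WT wells lay below both HEK-control wells and the HEK-Jag1Ndr wells overlapped both lines. In bulk samples, fewer cells using a gene and less RNA per cell cannot be told apart. Of the 34 members, 33 passed the filter on low counts, and HOXA2 did not. With edgeR's quasi-likelihood test and Benjamini-Hochberg adjustment over 13596 human genes, 21 of these 33 were called at 0.05 in at least 1 of the 3 comparisons between HEK lines.

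Between HEK-Jag1Ndr and HEK-Jag1WT, 14 of 33 HOX genes were called, 7 higher and 7 lower in HEK-Jag1Ndr. That is 42.4%, against 57.7% of all human genes tested, of which 29.2% were higher and 28.5% lower. Between HEK-Jag1Ndr and HEK-control, 12 were called, 4 higher and 8 lower, which is 36.4% against 46.1% of all genes (22.6% higher, 23.5% lower). Between HEK-Jag1WT and HEK-control, 12 were called, 3 higher and 9 lower, which is 36.4% against 54.3% of all genes (24.9% higher, 29.4% lower). In each comparison the share of HOX genes called was thus below that of all genes. HOX genes also had fewer reads, with a median of 2.95 log2 CPM against 5.2 over all genes tested, and the part of depth in these shares was not tested. The median size of a HOX difference, on the log2 scale and without its sign, was 0.509, 0.31 and 0.415 in these comparisons, against 0.354, 0.257 and 0.325 over all genes. In the same order, the 2 lines' wells did not overlap for 24, 19 and 25 of the 33 HOX genes, called or not. The share without overlap over all genes was not counted, so lack of overlap does not by itself mark a gene.

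DESeq2 ended 23 of these 38 calls. It kept HOXA5, HOXA6, HOXA13, HOXB13, HOXD4, HOXD9, HOXD10 and HOXD11 for HEK-Jag1Ndr against HEK-Jag1WT. It kept HOXA5, HOXA6 and HOXD10 for HEK-Jag1Ndr against HEK-control, and HOXA13, HOXB9, HOXB13 and HOXD11 for HEK-Jag1WT against HEK-control. Every other call between HEK lines given for a single HOX gene below did not pass in DESeq2.

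The calls were also counted by place in the cluster, with no test of a difference between places. Over all genes tested, 29.2% were called higher and 28.5% lower in HEK-Jag1Ndr than in HEK-Jag1WT. Against HEK-control the shares of all genes were 22.6% higher and 23.5% lower in HEK-Jag1Ndr, and 24.9% higher and 29.4% lower in HEK-Jag1WT. Among the 14 posterior genes tested (paralogues 9 to 13), 7 were higher and 2 lower in HEK-Jag1Ndr than in HEK-Jag1WT, while among the 13 central genes (paralogues 4 to 8) 0 were higher and 5 lower. None of the 6 anterior genes tested (paralogues 1 to 3) was called there, although 4 of the 6 values were above 0. Against HEK-control, HEK-Jag1Ndr had 4 posterior genes higher and 2 lower, and 0 central genes higher and 5 lower. The central values below 0 numbered 12 of 13 there, and 10 with DESeq2's scaling. HEK-Jag1WT had 1 posterior gene higher and 6 lower than HEK-control, and 2 central genes higher and 2 lower. HEK-Jag1Ndr and HEK-Jag1WT were each set against the same HEK-control wells, so these counts are not independent of each other. In DESeq2, HEK-Jag1Ndr had 5 posterior genes higher and 3 central genes lower than HEK-Jag1WT, and 1 posterior gene higher and 2 central genes lower than HEK-control. HEK-Jag1WT had 4 posterior genes lower than HEK-control there. Of all 13596 genes, DESeq2 called 4866, 2995 and 4267 in these comparisons, in the same order.

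**Figure D2:**
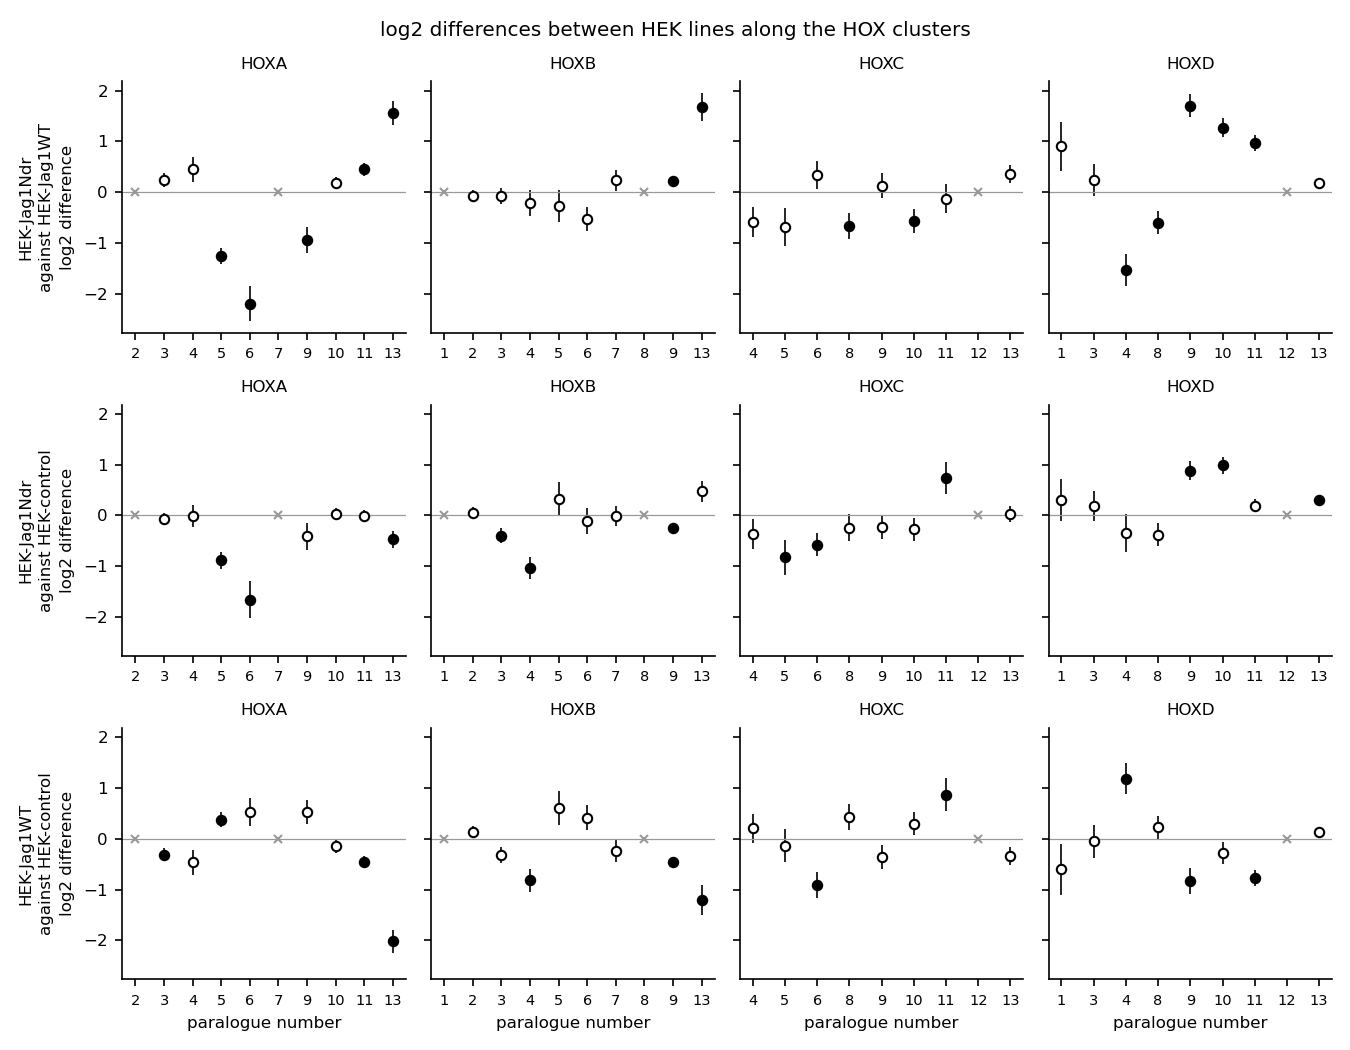
log2 difference (edgeR, with its SE) of the tested HOX genes shown, by cluster and paralogue number, for HEK-Jag1Ndr against HEK-Jag1WT (top), HEK-Jag1Ndr against HEK-control (middle) and HEK-Jag1WT against HEK-control (bottom); filled points were called at an adjusted p of 0.05 and crosses mark untested genes. In the top panels, HOXA13, HOXB13, HOXD9, HOXD10 and HOXD11 lie above 0 and HOXA5, HOXA6 and HOXD4 below it.

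The group 13 genes HOXA13 and HOXB13 were lowest in HEK-Jag1WT. HOXA13, a gene of the digits and the urogenital tract, had 8.24 and 17.3 CPM in HEK-Jag1Ndr wells, 3.92 and 4.75 in HEK-Jag1WT wells, and 16.0 and 17.6 in HEK-control wells. Both HEK-Jag1WT wells were below every other well, and the HEK-Jag1Ndr wells differed from each other, one near the HEK-control level and one between the 2 other lines. The log2 difference was 1.55 (SE 0.240, adjusted p = 1.05e-07) for HEK-Jag1Ndr against HEK-Jag1WT and -2.02 (SE 0.229, adjusted p = 2.48e-11) for HEK-Jag1WT against HEK-control. HEK-Jag1Ndr against HEK-control gave -0.47 (adjusted p = 0.0203), with overlapping wells. That call was lost without the HEK-Jag1Ndr well beside C2C12-Notch1 (log2 difference -0.05, adjusted p = 0.892) or the HEK-control well beside C2C12-Notch1 (adjusted p = 0.809), and over all alternatives its adjusted p ran from 0.0006 to 0.892.

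HOXB13, known from the prostate and the tail end of the axis, had 10.1 and 8.78 CPM in HEK-Jag1Ndr wells, 2.61 and 3.23 in HEK-Jag1WT wells, and 6.21 and 7.83 in HEK-control wells. The 3 lines did not overlap, with HEK-Jag1Ndr highest and HEK-Jag1WT lowest. The log2 difference was 1.68 (SE 0.273, adjusted p = 3.27e-07) for HEK-Jag1Ndr against HEK-Jag1WT and -1.21 (SE 0.295, adjusted p = 0.00042) for HEK-Jag1WT against HEK-control. For HEK-Jag1Ndr against HEK-control it was 0.47 with a 95% interval of 0.045 to 0.902 and an adjusted p of 0.0639, which did not pass.

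Of the 2 other group 13 genes, 1 was called. HOXD13 had 49.8 and 60.1 CPM in HEK-Jag1Ndr wells, 48.5 and 48.6 in HEK-Jag1WT wells, and 41.6 and 47.3 in HEK-control wells, so HEK-Jag1Ndr lay highest and no lines overlapped. HOXD13 was called only for HEK-Jag1Ndr against HEK-control, with a log2 difference of 0.31 (SE 0.0965, adjusted p = 0.00638). The call was lost without the HEK-Jag1Ndr well beside C2C12-control (adjusted p = 0.150) or the HEK-control well beside C2C12-Notch1 (0.0684), within a range of 0.00613 to 0.150 over the alternatives. HOXC13 had 13.9 and 16.2 CPM in HEK-Jag1Ndr wells, 10.6 and 12.7 in HEK-Jag1WT wells, and 14.7 and 14.0 in HEK-control wells. Its HEK-Jag1WT wells were lowest, but the difference passed in no comparison. The 95% interval of the HOXC13 log2 difference was 0.018 to 0.712 for HEK-Jag1Ndr against HEK-Jag1WT (adjusted p = 0.0662) and -0.684 to 0.022 for HEK-Jag1WT against HEK-control.

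The adjacent genes HOXD9, HOXD10 and HOXD11 were higher in HEK-Jag1Ndr than in HEK-Jag1WT. These genes pattern the limb, and HOXD11 belongs to the group that the mouse kidney needs. HOXD9 had 13.1 and 16.5 CPM in HEK-Jag1Ndr wells, 5.04 and 3.99 in HEK-Jag1WT wells, and 7.39 and 8.81 in HEK-control wells. The 3 lines did not overlap, with HEK-Jag1Ndr highest and HEK-Jag1WT lowest. The log2 difference was 1.71 (SE 0.222, adjusted p = 1.16e-09) for HEK-Jag1Ndr against HEK-Jag1WT, 0.88 (SE 0.186, adjusted p = 7.37e-05) for HEK-Jag1Ndr against HEK-control and -0.83 (SE 0.254, adjusted p = 0.00466) for HEK-Jag1WT against HEK-control. The last was lost without the HEK-Jag1WT well beside C2C12-control, where it was -0.51 with an adjusted p of 0.203, the highest of a range from 0.00422.

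HOXD10 had 19.2 and 19.4 CPM in HEK-Jag1Ndr wells, 5.78 and 10.3 in HEK-Jag1WT wells, and 10.1 and 8.57 in HEK-control wells. Both HEK-Jag1Ndr wells were above all others, and the HEK-Jag1WT and HEK-control wells overlapped. The log2 difference was 1.27 (SE 0.189, adjusted p = 3.98e-08) for HEK-Jag1Ndr against HEK-Jag1WT and 0.98 (SE 0.172, adjusted p = 2.41e-06) for HEK-Jag1Ndr against HEK-control.

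HOXD11 had 27.2 and 24.1 CPM in HEK-Jag1Ndr wells, 11.6 and 14.6 in HEK-Jag1WT wells, and 23.4 and 21.1 in HEK-control wells. Here HEK-Jag1WT stood apart, below the other 2 lines. The log2 difference was 0.97 (SE 0.153, adjusted p = 1.64e-07) for HEK-Jag1Ndr against HEK-Jag1WT and -0.78 (SE 0.158, adjusted p = 2.87e-05) for HEK-Jag1WT against HEK-control. The second was lost without the HEK-Jag1WT well beside C2C12-Notch1, where the log2 difference was -0.48 with an adjusted p of 0.0690, the highest of a range from 4.62e-06.

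HOXA11, of the same paralogue group as HOXD11, also lay lowest in HEK-Jag1WT, by a smaller margin. It had 33.6 and 36.5 CPM in HEK-Jag1Ndr wells, 25.7 and 25.7 in HEK-Jag1WT wells, and 36.8 and 32.6 in HEK-control wells. The log2 difference was 0.45 (adjusted p = 0.00115) for HEK-Jag1Ndr against HEK-Jag1WT and -0.46 (adjusted p = 0.0012) for HEK-Jag1WT against HEK-control. The HOXA11 difference was lost for HEK-Jag1Ndr against HEK-Jag1WT without the HEK-Jag1Ndr well beside C2C12-control (adjusted p = 0.0870, range from 0.000311), and for HEK-Jag1WT against HEK-control without the HEK-Jag1WT well beside C2C12-Notch1 (0.0537) or the HEK-control well beside C2C12-Notch1 (0.149, range from 0.000338).

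HOXC11, the group's HOXC member, went the other way, with more reads in both Jag1 lines than in HEK-control. It had 3.36 and 5.58 CPM in HEK-Jag1Ndr wells, 4.48 and 5.32 in HEK-Jag1WT wells, and 2.46 and 2.69 in HEK-control wells. The Jag1 lines overlapped each other and neither overlapped HEK-control. The HOXC11 log2 difference was 0.73 (adjusted p = 0.0493) for HEK-Jag1Ndr and 0.86 (adjusted p = 0.0202) for HEK-Jag1WT, each against HEK-control. The HOXC11 call for HEK-Jag1Ndr was lost in 12 of 14 alternatives, with adjusted p from 0.0489 to 0.407, and without any of 5 wells, the exception being the HEK-Jag1Ndr well beside C2C12-Notch1. The HOXC11 call for HEK-Jag1WT was lost without the HEK-Jag1WT well beside C2C12-Notch1 (0.172) or either HEK-control well (0.0599 and 0.126), in a range of 0.0118 to 0.208. Since HOTAIR overlaps HOXC11, its reads cannot be told apart from those of HOXC11 without strand.

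HOXB9 was lowest in HEK-Jag1WT and highest in HEK-control. It had 87.7 and 101.2 CPM in HEK-Jag1Ndr wells, 77.0 and 85.3 in HEK-Jag1WT wells, and 102.0 and 122.7 in HEK-control wells. The lines did not overlap. HOXB9 differed by -0.46 (SE 0.0769, adjusted p = 7.16e-07) on the log2 scale for HEK-Jag1WT against HEK-control, by 0.22 (adjusted p = 0.0137) for HEK-Jag1Ndr against HEK-Jag1WT and by -0.24 (adjusted p = 0.00442) for HEK-Jag1Ndr against HEK-control. Without the HEK-Jag1Ndr well beside C2C12-control the HOXB9 call against HEK-control was lost (adjusted p = 0.0635, range 0.00382 to 0.170). The HOXB9 call of HEK-Jag1Ndr against HEK-Jag1WT did not pass when any 1 of their 4 wells was left out, with adjusted p of 0.119 and 0.0880 without the HEK-Jag1Ndr wells and 0.0888 and 0.304 without the HEK-Jag1WT wells, in a range from 0.00355.

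HOXA10, the leader of its cluster, had 33.3 and 33.7 CPM in HEK-Jag1Ndr wells, 29.7 and 29.1 in HEK-Jag1WT wells, and 33.5 and 31.3 in HEK-control wells. HOXA10 passed in no comparison, and the 95% intervals of its log2 differences were -0.044 to 0.426 (HEK-Jag1Ndr against HEK-Jag1WT), -0.183 to 0.26 (HEK-Jag1Ndr against HEK-control) and -0.391 to 0.085 (HEK-Jag1WT against HEK-control). Its neighbour HOXA9, known from blood formation and leukaemia, had 3.51 and 5.16 CPM in HEK-Jag1Ndr wells, 7.65 and 9.12 in HEK-Jag1WT wells, and 5.72 and 5.39 in HEK-control wells. HEK-Jag1Ndr was lowest and HEK-Jag1WT highest, without overlap. HOXA9 was called for HEK-Jag1Ndr against HEK-Jag1WT, with a log2 difference of -0.94 (SE 0.250, adjusted p = 0.000988).

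HOXC10, which acts in the lumbar spinal cord, was the other posterior gene lower in HEK-Jag1Ndr than in HEK-Jag1WT. It had 6.10 and 5.30 CPM in HEK-Jag1Ndr wells, 8.39 and 8.55 in HEK-Jag1WT wells, and 7.29 and 6.37 in HEK-control wells, with no overlap between lines. The HOXC10 log2 difference was -0.57 (adjusted p = 0.0317), and the call was lost without either HEK-Jag1Ndr well (adjusted p = 0.0731 and 0.164) or either HEK-Jag1WT well (0.0625 and 0.227), in a range of 0.0195 to 0.279.

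**Figure D3:**
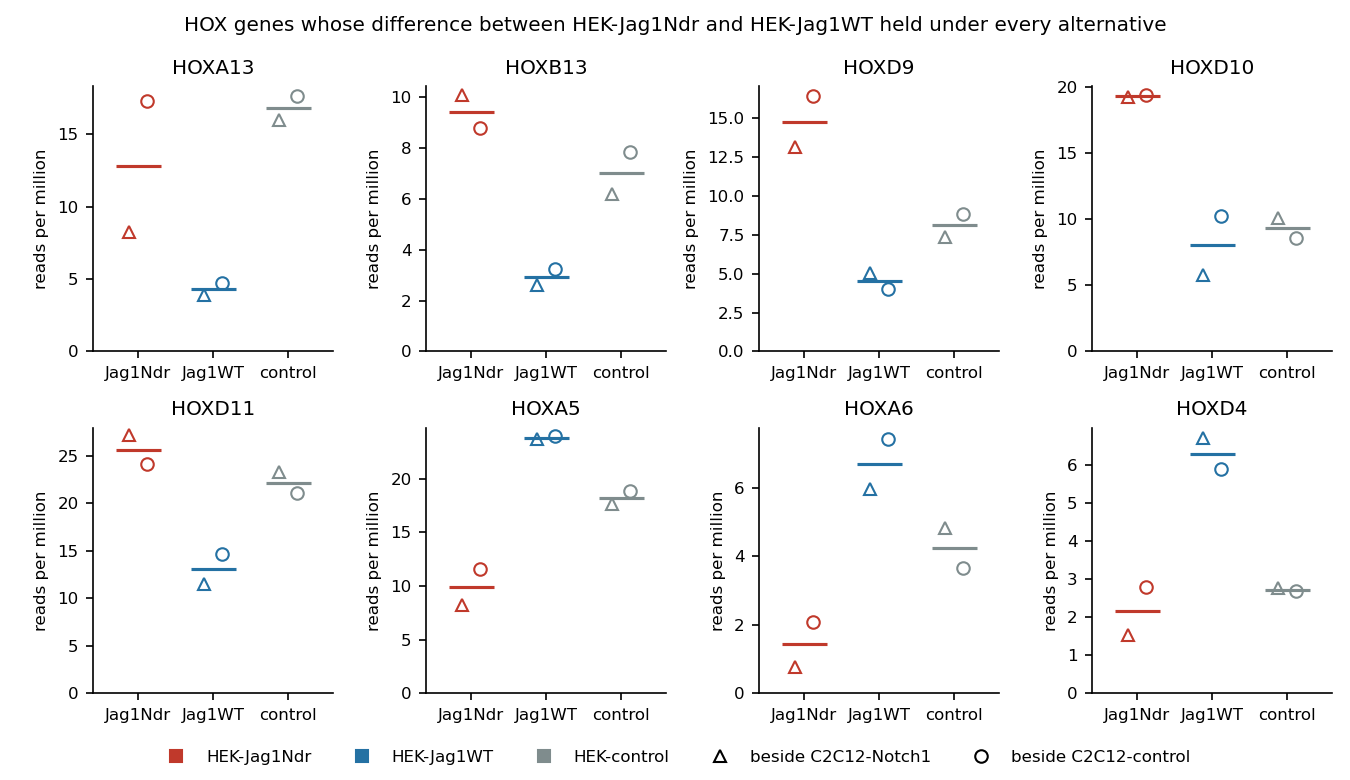
Scaled reads (CPM with TMM factors) of the 8 HOX genes whose difference between HEK-Jag1Ndr and HEK-Jag1WT was called under every alternative, with 1 point per well, symbols for the C2C12 partner and a bar at each line's mean of 2 wells. In HOXA13, HOXB13, HOXD9, HOXD10 and HOXD11 both HEK-Jag1Ndr wells lie above both HEK-Jag1WT wells, and in HOXA5, HOXA6 and HOXD4 below them.

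Among the central genes, HOXA5 and HOXA6 were lowest in HEK-Jag1Ndr. HOXA5 had 8.24 and 11.6 CPM in HEK-Jag1Ndr wells, 23.7 and 23.9 in HEK-Jag1WT wells, and 17.6 and 18.9 in HEK-control wells. The 3 lines did not overlap. The HOXA5 log2 difference was -1.26 (SE 0.162, adjusted p = 7.82e-10) for HEK-Jag1Ndr against HEK-Jag1WT and -0.89 (SE 0.165, adjusted p = 8.56e-06) for HEK-Jag1Ndr against HEK-control. HEK-Jag1WT against HEK-control gave 0.37 (adjusted p = 0.0252), a call lost without the HEK-Jag1WT well beside C2C12-Notch1 (0.306) or either HEK-control well (0.0891 and 0.0700), in a range from 0.012.

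HOXA6, the next gene of the cluster, had 0.763 and 2.09 CPM in HEK-Jag1Ndr wells, 5.97 and 7.41 in HEK-Jag1WT wells, and 4.83 and 3.67 in HEK-control wells. The lines again did not overlap, but these values rest on only 5 to 49 reads per well. The HOXA6 log2 difference was -2.19 (SE 0.348, adjusted p = 1.9e-07) for HEK-Jag1Ndr against HEK-Jag1WT and -1.66 (SE 0.366, adjusted p = 0.000139) for HEK-Jag1Ndr against HEK-control. Against HEK-control the HOXA6 call was lost without the HEK-control well beside C2C12-Notch1, where the log2 difference was -1.09 with an adjusted p of 0.114, the highest of a range from 1.76e-05. HOXA-AS3 overlaps both genes and was not called between HEK-Jag1Ndr and HEK-Jag1WT.

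HOXD4, a gene of the hindbrain and upper neck, was higher in HEK-Jag1WT than in both other lines. It had 1.53 and 2.79 CPM in HEK-Jag1Ndr wells, 6.71 and 5.89 in HEK-Jag1WT wells, and 2.76 and 2.69 in HEK-control wells. The HEK-Jag1Ndr and HEK-control wells overlapped. The HOXD4 log2 difference was -1.52 (SE 0.316, adjusted p = 3.49e-05) for HEK-Jag1Ndr against HEK-Jag1WT and 1.18 (SE 0.304, adjusted p = 0.000788) for HEK-Jag1WT against HEK-control. Without the HEK-Jag1WT well beside C2C12-Notch1 the HOXD4 value against HEK-control was 0.88 with an adjusted p of 0.121, the highest of a range from 0.000153, and in DESeq2 the adjusted p was 0.087.

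HOXB4 and HOXC6 were lower in both Jag1 lines than in HEK-control. HOXB4, which expands blood stem cells when overproduced, had 5.19 and 5.72 CPM in HEK-Jag1Ndr wells, 5.41 and 7.22 in HEK-Jag1WT wells, and 11.2 and 10.5 in HEK-control wells. The Jag1 lines overlapped each other and both lay below HEK-control. The HOXB4 log2 difference was -1.03 (SE 0.215, adjusted p = 5.95e-05) for HEK-Jag1Ndr and -0.82 (SE 0.222, adjusted p = 0.00133) for HEK-Jag1WT. The second was lost without the HEK-Jag1WT well beside C2C12-Notch1 (0.152) or the HEK-control well beside C2C12-Notch1 (0.124), in a range from 0.000909.

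HOXC6, a gene of the thoracic level, had 5.34 and 5.86 CPM in HEK-Jag1Ndr wells, 4.85 and 3.99 in HEK-Jag1WT wells, and 8.28 and 8.57 in HEK-control wells. No lines overlapped. The HOXC6 log2 difference was -0.58 (adjusted p = 0.0315) for HEK-Jag1Ndr and -0.92 (SE 0.254, adjusted p = 0.0017) for HEK-Jag1WT, each against HEK-control. For HEK-Jag1Ndr the HOXC6 call was lost without either HEK-Jag1Ndr well (adjusted p = 0.283 and 0.0741) or either HEK-control well (0.162 and 0.120), in a range of 0.0297 to 0.389. For HEK-Jag1WT it was lost without the HEK-Jag1WT well beside C2C12-control (0.0672, range 0.00134 to 0.108).

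Of the calls that DESeq2 ended, 3 passed under the 13 other alternatives. These were HOXB4 (adjusted p = 0.0516 in DESeq2) and HOXD9 (0.0521) for HEK-Jag1Ndr against HEK-control, and HOXA9 (0.076) for HEK-Jag1Ndr against HEK-Jag1WT.

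The remaining calls on central and anterior genes were small or rested on few reads. HOXC8, a thoracic gene, had 3.36 and 5.72 CPM in HEK-Jag1Ndr wells, 6.34 and 8.17 in HEK-Jag1WT wells, and 5.52 and 4.41 in HEK-control wells. It was lower in HEK-Jag1Ndr than in HEK-Jag1WT, without overlap, at a log2 difference of -0.67 (adjusted p = 0.0252, range 0.0108 to 0.315). The HOXC8 call was lost without the HEK-Jag1Ndr well beside C2C12-Notch1 (0.315) or either HEK-Jag1WT well (0.0561 and 0.179). HOXD8 had 5.65 and 6.27 CPM in HEK-Jag1Ndr wells, 8.77 and 9.31 in HEK-Jag1WT wells, and 6.996 and 8.81 in HEK-control wells. It gave -0.60 (adjusted p = 0.0204) for HEK-Jag1Ndr against HEK-Jag1WT, without overlap between these 2 lines. On log2(RPKM + 0.1), where the length of HOXD8 differs between wells, that difference was -0.16 with an adjusted p of 0.445 in limma, the highest of a range from 0.0151. The HOXD8 call was also lost without either HEK-Jag1Ndr well (0.0562 and 0.122) or either HEK-Jag1WT well (0.135 and 0.0612).

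HOXC5 had 1.53 and 2.65 CPM in HEK-Jag1Ndr wells, 2.80 and 3.99 in HEK-Jag1WT wells, and 3.74 and 3.18 in HEK-control wells. HEK-Jag1Ndr was below HEK-control in both wells, at a log2 difference of -0.82 (adjusted p = 0.047, range 0.0246 to 0.7). The HOXC5 call was lost without the HEK-Jag1Ndr well beside C2C12-Notch1 (0.429) or the HEK-control well beside C2C12-Notch1 (0.7), and without either HEK-Jag1WT well (0.0734 and 0.0747). HOXB3, which acts in the hindbrain, had 14.3 and 17.8 CPM in HEK-Jag1Ndr wells, 13.1 and 20.9 in HEK-Jag1WT wells, and 20.4 and 20.6 in HEK-control wells. The HEK-Jag1WT wells spanned the others, and HEK-Jag1Ndr lay below HEK-control at a log2 difference of -0.40 (adjusted p = 0.0223, range 0.00246 to 0.666). The HOXB3 call was lost without either HEK-Jag1Ndr well (0.119 and 0.101) or the HEK-control well beside C2C12-Notch1 (0.666).

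HOXA3, needed for the thymus and parathyroid in the mouse, was the other anterior gene called. It had 23.4 and 31.9 CPM in HEK-Jag1Ndr wells, 22.2 and 24.5 in HEK-Jag1WT wells, and 27 and 30.6 in HEK-control wells. HEK-Jag1WT was below HEK-control without overlap, at a log2 difference of -0.32 (adjusted p = 0.0351, range 0.0323 to 0.367), and the HEK-Jag1Ndr wells overlapped both lines. The HOXA3 call was lost in 10 of 14 alternatives, among them the removal of any well but the HEK-control well beside C2C12-control, with an adjusted p of 0.367 without the HEK-Jag1WT well beside C2C12-control.

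Of the 33 tested members, 12 passed in no comparison between HEK lines, among them HOXA4, HOXA10, HOXB2, HOXB5, HOXB6, HOXB7, HOXC4, HOXC9, HOXC13, HOXD1 and HOXD3. For HOXB2, one of the most abundant, the 95% interval of the log2 difference was -0.312 to 0.162 for HEK-Jag1Ndr against HEK-Jag1WT, -0.181 to 0.285 for HEK-Jag1Ndr against HEK-control and -0.115 to 0.369 for HEK-Jag1WT against HEK-control. For HOXC9, with 267 reads, the intervals were wider, at -0.362 to 0.617, -0.677 to 0.205 and -0.839 to 0.112.

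The make-up of each cluster, as the share of its reads on posterior members, needs no scaling between wells. In the HOXD cluster the share was 89.5% and 88.3% in HEK-Jag1Ndr wells, 77.7% and 79.9% in HEK-Jag1WT wells, and 84.7% and 83.5% in HEK-control wells. The lines did not overlap, and the 95% Wilson intervals of the HEK-Jag1Ndr wells (87.2% to 91.4% and 86.2% to 90.2%) lay above those of the HEK-Jag1WT wells (73.8% to 81.2% and 76.2% to 83.2%). In the HOXA cluster it was 63.2% and 57.6% in HEK-Jag1Ndr wells, 50.4% and 49.7% in HEK-Jag1WT wells, and 58.3% and 55.0% in HEK-control wells.

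HEK-Jag1WT was lowest in the HOXB cluster as well. In HOXC, HEK-Jag1Ndr was highest in both wells, and the HEK-Jag1WT and HEK-control wells overlapped. In HOXB the posterior share was 61.1% and 58.2% in HEK-Jag1Ndr wells, 54.8% and 50.9% in HEK-Jag1WT wells, and 58.8% and 61.8% in HEK-control wells. In HOXC it was 70.6% and 63.7% in HEK-Jag1Ndr wells, 61.4% and 59.5% in HEK-Jag1WT wells, and 60.4% and 58.5% in HEK-control wells. These shares describe the reads already used for the calls above and were given no test, and the intervals cover counting error only. The whole HOXD cluster had 119.7 and 136.9 CPM in HEK-Jag1Ndr wells, 91.0 and 99.6 in HEK-Jag1WT wells, and 96.2 and 102.7 in HEK-control wells, so its total was also highest in HEK-Jag1Ndr.

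**Figure D4:**
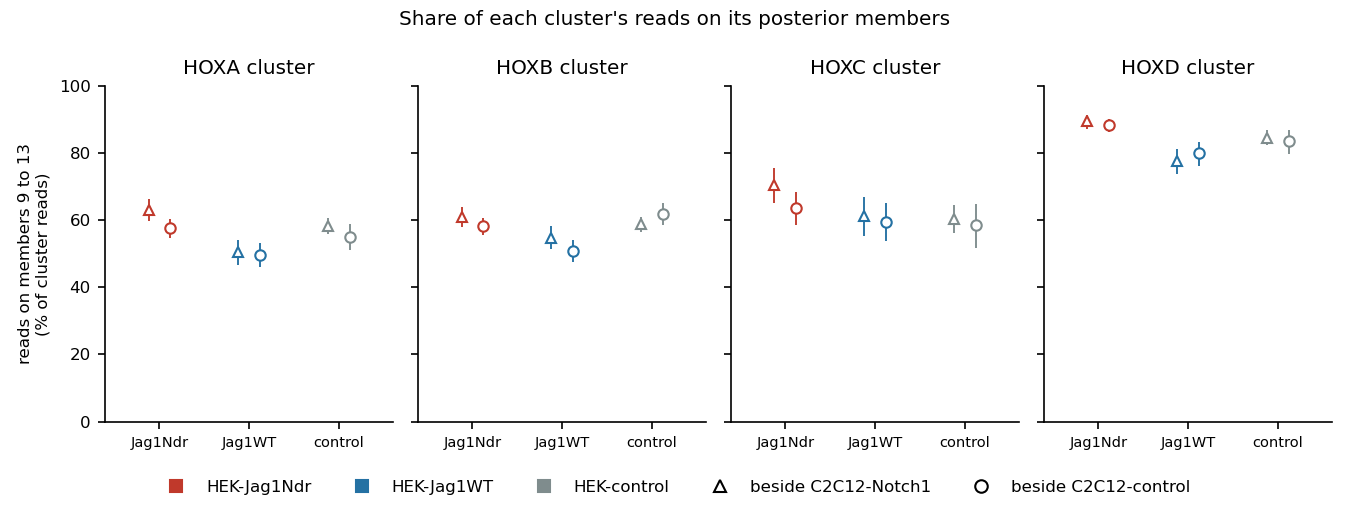
Share of each cluster's reads on members 9 to 13, in percent, per well, with 95% Wilson intervals for counting error; colour marks the HEK line and symbol the C2C12 partner. In HOXA, HOXB and HOXD both HEK-Jag1WT wells lie below all wells of the other lines.

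Few HOX genes were called by C2C12 partner. Beside C2C12-Notch1, 0 HOX genes were higher and 2 lower than beside C2C12-control, HOXB9 and HOXA13, which is 6.06% of 33 against 4.84% of all human genes (3.07% higher, 1.77% lower). By HEK line in the order HEK-Jag1Ndr, HEK-Jag1WT and HEK-control, HOXB9 had 87.7, 77.0 and 102.0 CPM beside C2C12-Notch1 and 101.2, 85.3 and 122.7 beside C2C12-control. It was lower beside C2C12-Notch1 in each of the 3 pairs, and the groups overlapped because the HEK lines differ. The HOXB9 log2 difference was -0.21 (SE 0.0617, adjusted p = 0.0295), and leaving out any 1 well ended the call, with adjusted p between 0.0717 without the HEK-control well beside C2C12-Notch1 and 0.195 without the HEK-Jag1Ndr well beside C2C12-control, and the full range over the alternatives was 0.0137 to 1.0.

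HOXA13, whose wells are given above, was also lower beside C2C12-Notch1 in each of the 3 pairs. The HOXA13 log2 difference was -0.52 (SE 0.160, adjusted p = 0.0425, range 0.00134 to 1.0). It was -0.18 without the HEK-Jag1Ndr well beside C2C12-Notch1 (adjusted p = 0.837) and likewise without its C2C12-control partner (0.838), and the call was also lost without either HEK-Jag1WT well (0.0544 and 0.0559).

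Of the 33 HOX differences, 27 were below 0 beside C2C12-Notch1 (81.8%, against 49.6% of all genes), with a median of -0.201 log2 against 0.00149 over all genes. With library size only, upper quartile or DESeq2 scaling 28, 28 and 26 were below 0. At an unadjusted p under 0.05 there were 8 HOX genes (24.2%), against 18.4% of all genes. Mouse reads moved with this comparison: they made up 36.5%, 29.6% and 33.6% of gene reads in C2C12-Notch1 wells and 52.7%, 47.2% and 49.4% in C2C12-control wells, in the order HEK-Jag1Ndr, HEK-Jag1WT and HEK-control. In the HOXD cluster, whose mouse orthologues had 1 read in all, 6 of 8 values were below 0 with a median of -0.138. In HOXB, with 268 mouse and 6828 human reads, 8 of 8 were below 0 with a median of -0.23. In HOXA, with 1889 mouse and 5653 human reads, 7 of 9 were below 0 with a median of -0.23. In HOXC, with 2465 mouse and 1964 human reads, 6 of 8 were below 0 with a median of -0.203. The part of mouse reads in the HOXA, HOXB and HOXC values was not tested.

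The mouse orthologues in the same wells had few reads in the HOXD and HOXB clusters. All 9 human HOXD genes were read, with 4189 reads, while their mouse orthologues had 1 read, on Hoxd9, and 8 of 9 were at 0. The HOXB cluster had 6828 human and 268 mouse reads. HOXB9 averaged 35.7 RPKM in the human table and its orthologue Hoxb9 0.286 RPKM in the mouse table, and HOXB2 had 1134 human reads where Hoxb2 had 0.

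HOXA and HOXC were read in both species. HOXA had 5653 human and 1889 mouse reads, carried in the mouse by Hoxa9, Hoxa10 and Hoxa11 at 5.23, 13.3 and 9.85 RPKM. HOXC was the one cluster with fewer human than mouse reads, 1964 against 2465. HOXC10 averaged 3.56 RPKM in the human table and Hoxc10 25.3 RPKM in the mouse table. HOXA13 averaged 4.51 RPKM and Hoxa13 0.177 RPKM. How reads of near-identical exons were split between species is not given in the sources used here, so a human count in HOXA or HOXC may hold mouse reads, and the reverse.

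**Figure D5:**
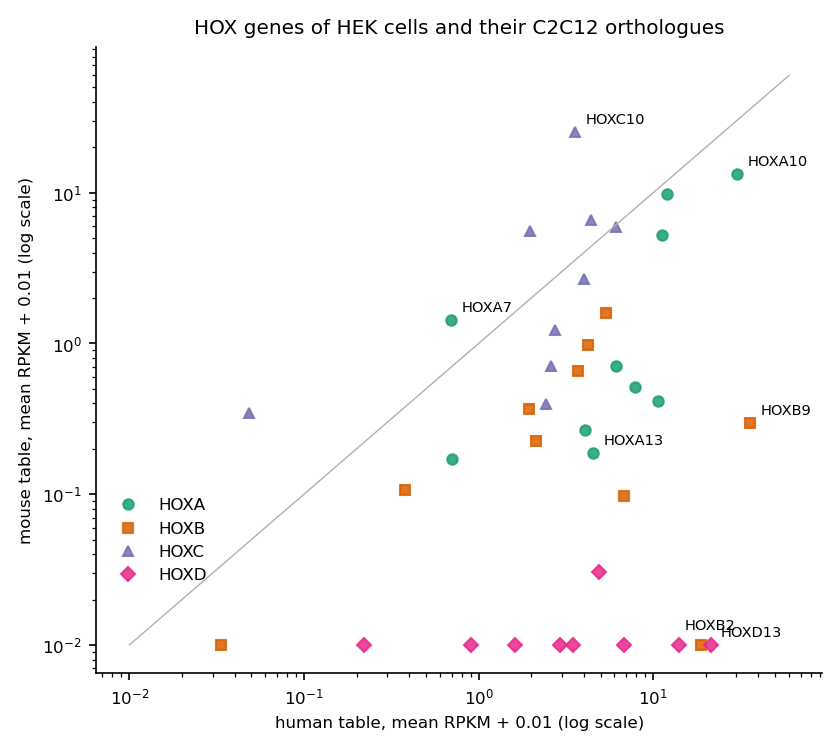
Mean over 6 wells of each HOX gene shown, in the human table (horizontal) and of its orthologue in the mouse table (vertical), both as the authors' RPKM plus 0.01 on log axes; the line marks equal values and symbols the cluster. HOXD genes and HOXB2 lie at the bottom, with mouse values at or near 0, and HOXC10 lies above the line.

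The non-coding RNAs of the clusters were few enough in reads that 9 of the 18 found in the human table could be tested. Between HEK-Jag1Ndr and HEK-Jag1WT 1 was higher and 1 lower, between HEK-Jag1Ndr and HEK-control 0 of 9 were called in edgeR or DESeq2 (3 at an unadjusted p under 0.05 in edgeR), and between HEK-Jag1WT and HEK-control 2 were higher and 4 lower in edgeR, where DESeq2 called 0. In edgeR these were 22.2%, 0.0% and 66.7% of the RNAs tested, against 57.7%, 46.1% and 54.3% of all genes. HOXA11-AS, which is read from the strand opposite to HOXA11, had 8.44 and 8.55 RPKM in HEK-Jag1Ndr wells, 4.14 and 5.33 in HEK-Jag1WT wells, and 7.90 and 7.99 in HEK-control wells. HEK-Jag1WT was lowest, as it was for HOXA11. In RefSeq's GRCh38.p14 extents no gene overlapped HOXA11, but the hg19 gene models were not compared. Whether HOXA11 and HOXA11-AS share reads, which carry no strand here, was not tested, so these are not taken as separate results. The HOXA11-AS log2 difference was 0.86 (SE 0.199, adjusted p = 0.000184) for HEK-Jag1Ndr against HEK-Jag1WT and -0.77 (SE 0.203, adjusted p = 0.00105) for HEK-Jag1WT against HEK-control. The second was lost without the HEK-Jag1WT well beside C2C12-Notch1 (adjusted p = 0.106, the highest of a range from 0.000785) and in DESeq2 (0.0796).

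HOTAIR, an antisense RNA of the HOXC cluster, was the one cluster RNA called by C2C12 partner. It had 3.61, 4.17 and 2.88 RPKM beside C2C12-Notch1 and 5.59, 6.51 and 3.96 RPKM beside C2C12-control, with HEK-Jag1Ndr, HEK-Jag1WT and HEK-control in that order. HOTAIR was lower beside C2C12-Notch1 in each of the 3 pairs, at a log2 difference of -0.57 (SE 0.160, adjusted p = 0.0230). The HOTAIR call was lost without either HEK-Jag1Ndr well (0.225 and 0.231) or either HEK-Jag1WT well (0.240 and 0.244), in a range from 0.0114 to 1.0.

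Among genes that flank the clusters, higher calls outnumbered lower ones in HEK-Jag1Ndr. Of 28 flanking genes tested, 18 were higher and 4 lower in HEK-Jag1Ndr than in HEK-Jag1WT, 14 were higher and 2 lower than in HEK-control, and 5 were higher and 6 lower in HEK-Jag1WT than in HEK-control. The shares called were 78.6%, 57.1% and 39.3%, against 57.7%, 46.1% and 54.3% of all genes. The medians were 0.232, 0.160 and -0.006 log2, against -0.0123, -0.00923 and -0.0261 over all genes. TTLL6, the next protein-coding gene beyond HOXB13 in RefSeq's order, had 2.89 and 3.04 RPKM in HEK-Jag1Ndr wells, 0.650 and 0.537 in HEK-Jag1WT wells, and 0.890 and 1.07 in HEK-control wells. The HEK-Jag1Ndr wells were above all others, and the TTLL6 log2 difference was 2.31 (SE 0.288, adjusted p = 3.36e-10) for HEK-Jag1Ndr against HEK-Jag1WT. TTLL6 adds glutamate chains to tubulin. EVX1 and EVX2, the homeobox genes at the posterior ends of HOXA and HOXD, had 2 and 0 reads over the 6 wells.

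Among the cofactors and chromatin regulators, lower calls outnumbered higher ones in HEK-Jag1Ndr. Of 8 PBX, MEIS and PKNOX genes tested, 0 were higher and 4 lower in HEK-Jag1Ndr than in HEK-Jag1WT, 0 higher and 3 lower than in HEK-control, and 2 higher and 1 lower in HEK-Jag1WT than in HEK-control. That is 50.0%, 37.5% and 37.5% of these cofactors, against 57.7%, 46.1% and 54.3% of all genes. PBX2 had 15.3 and 17.6 RPKM in HEK-Jag1Ndr wells, 23.8 and 31.3 in HEK-Jag1WT wells, and 23.2 and 24.1 in HEK-control wells. Both HEK-Jag1Ndr wells were lowest, at a PBX2 log2 difference of -0.72 (SE 0.104, adjusted p = 2.24e-08) against HEK-Jag1WT. Of 29 Polycomb genes, 7 were higher and 14 lower in HEK-Jag1Ndr than in HEK-Jag1WT, 4 higher and 9 lower than in HEK-control, and 10 higher and 8 lower in HEK-Jag1WT than in HEK-control. The Polycomb shares called were 72.4%, 44.8% and 62.1%, beside the same shares of all genes.

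EZH2, the Polycomb enzyme that methylates histone H3 at the silencing mark, had 33.5 and 29.7 RPKM in HEK-Jag1Ndr wells, 54.1 and 52.4 in HEK-Jag1WT wells, and 29.7 and 30.2 in HEK-control wells. HEK-Jag1WT stood above the other lines, with an EZH2 log2 difference of -0.88 (SE 0.0749, adjusted p = 5.56e-16) for HEK-Jag1Ndr against HEK-Jag1WT and 0.97 (SE 0.0766, adjusted p = 3.76e-17) for HEK-Jag1WT against HEK-control. MLL, the Trithorax methyltransferase now named KMT2A, had 7.01 and 6.67 RPKM in HEK-Jag1Ndr wells, 15.1 and 11.9 in HEK-Jag1WT wells, and 5.603 and 5.89 in HEK-control wells. It too was highest in HEK-Jag1WT, with an MLL log2 difference of -0.95 (SE 0.0704, adjusted p = 2.5e-17) for HEK-Jag1Ndr against HEK-Jag1WT and 1.23 (SE 0.0731, adjusted p = 5.77e-21) for HEK-Jag1WT against HEK-control. Of 15 Trithorax and demethylase genes, 3 were higher and 8 lower in HEK-Jag1Ndr than in HEK-Jag1WT, 3 higher and 7 lower than in HEK-control, and 6 higher and 3 lower in HEK-Jag1WT than in HEK-control. Their share called was 73.3% for HEK-Jag1Ndr against HEK-Jag1WT, beside 57.7% of all genes. For HEK-Jag1Ndr against HEK-control it was 66.7%, beside 46.1% of all genes. For HEK-Jag1WT against HEK-control, 9 of the 15 were called, beside 54.3% of all genes.

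CDX2, a caudal factor that regulates HOX genes in the embryo, was lowest in HEK-Jag1WT. It had 13.6 and 11.1 RPKM in HEK-Jag1Ndr wells, 9.13 and 7.10 in HEK-Jag1WT wells, and 12.95 and 11.4 in HEK-control wells. The CDX2 log2 difference was 0.63 (SE 0.133, adjusted p = 4.43e-05) for HEK-Jag1Ndr against HEK-Jag1WT and -0.59 (SE 0.134, adjusted p = 0.000155) for HEK-Jag1WT against HEK-control. Of the 6 CDX and ParaHox genes, CDX2 and PDX1 passed the filter, and PDX1 was not called between HEK lines.

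Kidney development factors were called at shares not far from those of all genes: 69.2%, 38.5% and 61.5% in the comparisons that follow, against 57.7%, 46.1% and 54.3%. Of 13 tested, 5 were higher and 4 lower in HEK-Jag1Ndr than in HEK-Jag1WT, 1 higher and 4 lower than in HEK-control, and 1 higher and 7 lower in HEK-Jag1WT than in HEK-control. FOXC1 had 20.9 and 22.0 RPKM in HEK-Jag1Ndr wells, 37.4 and 41.7 in HEK-Jag1WT wells, and 41.1 and 47.1 in HEK-control wells. HEK-Jag1Ndr was lowest, at a FOXC1 log2 difference of -1.03 (SE 0.0714, adjusted p = 1.63e-19) against HEK-control. SALL1 had 8.47 and 10.6 RPKM in HEK-Jag1Ndr wells, 4.40 and 6.09 in HEK-Jag1WT wells, and 8.03 and 9.18 in HEK-control wells. HEK-Jag1WT was lowest, with a SALL1 log2 difference of 0.84 (SE 0.112, adjusted p = 2.45e-09) for HEK-Jag1Ndr against HEK-Jag1WT. EYA1, needed for the early kidney in the mouse, had 1.94 and 1.31 RPKM in HEK-Jag1Ndr wells, 3.58 and 4.81 in HEK-Jag1WT wells, and 2.51 and 2.43 in HEK-control wells. The EYA1 log2 difference was -1.36 (SE 0.203, adjusted p = 4.73e-08) for HEK-Jag1Ndr against HEK-Jag1WT, and HEK-Jag1WT was highest in both wells. By C2C12 partner, 1 antisense RNA (HOTAIR) and 1 Polycomb gene (CBX2, adjusted p = 6.75e-05) were lower and 1 Trithorax gene (MLL3, adjusted p = 0.0356) was higher beside C2C12-Notch1, and 0 tested genes of the other lists were called in edgeR. These 3 calls are 11.1%, 3.45% and 6.67% of the genes tested in their lists, against 4.84% of all genes. DESeq2 gave no adjusted p there for 11 of 28 flanking genes, 5 of 8 cofactors, 2 of 2 CDX and ParaHox genes and 10 of 13 kidney factors, and called 0 of the rest. CBX2 passed under 11 and MLL3 under 4 of the 14 alternatives. At an unadjusted p under 0.05 edgeR had 4 flanking genes, 1 cofactor, 1 CDX or ParaHox gene and 3 kidney factors there. These gene lists were chosen with results of these data known, and their counts stand beside the shares of all genes given for each comparison.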

How the data were processed

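PolyA RNA libraries were made with the TruSeq RNA v2 kit, per the labels' protocols, which does not mark strand. The submitters' processing notes name STAR, hg19 and mm9. Which program counted reads, and how species were separated, is not stated in these sources. Per the file headers, the authors' tables give each well whole-number read counts and RPKM for RefSeq genes. Deposited counts were tested and RPKM gave levels.

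From the human table's 24303 entries, 448 exact repeats were left out. edgeR 4.0.16 in R 4.3.3 fitted the human counts with TMM, filterByExpr and the robust quasi-likelihood test, adjusted by Benjamini-Hochberg and called at 0.05. The model was additive, C2C12 line plus HEK line, over 6 wells with 2 residual degrees of freedom, and most of the spread was borrowed from all genes. An effect of 1 pair of lines counts as spread. Self-tests on simulated data were run. The 14 alternatives were 2 scalings, DESeq2 1.42.0, no filter, 1 line term alone, no robust estimation, limma 3.58.1 on log2(RPKM + 0.1) and log2(RPKM + 1), and each well left out. Intervals are 95% and cover counting error only where given for reads.

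Members with at least 30 reads are described. Per-well values are given for members called in any comparison and each cluster's leader, and up to 3 genes per other list and comparison were taken by smallest p. Members, lists and rules were chosen with earlier results of these data known. No sequences are shown, since no sequence of these genes was used here. The values of 1 member are not reported here, although it is in the counts and sums.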

Additional observations from a re-analysis of the deposited data

How the results depend on the processing

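All 40 HOX calls kept their direction under the 14 alternatives, for which 127 values lost the threshold and 432 kept it; 13 of the 38 calls between HEK lines passed under all 14. DESeq2 called fewer HOX genes, 8 for HEK-Jag1Ndr against HEK-Jag1WT, 3 for HEK-Jag1Ndr against HEK-control, 4 for HEK-Jag1WT against HEK-control and 0 for the C2C12 partner, where 31 of 33 had no adjusted p and 1 had an unadjusted p under 0.05. With 1 line term alone there were 6 for HEK-Jag1Ndr against HEK-control and 0 for the C2C12 partner, and limma gave 0 and 0 for the C2C12 partner. With each well left out in turn the counts were 10 to 15 for HEK-Jag1Ndr against HEK-Jag1WT, 5 to 11 for HEK-Jag1Ndr against HEK-control (5 without the HEK-control well beside C2C12-Notch1), 5 to 12 for HEK-Jag1WT against HEK-control (5 without the HEK-Jag1WT well beside C2C12-Notch1) and 0 to 2 for the C2C12 partner (0 without any well of a Jag1 line). A line left with 1 well is assumed to vary like the others. The number of members with at least 30 reads was 34 without any well. Over all genes DESeq2 called 4866, 2995, 4267 and 69 genes, against 7843, 6266, 7379 and 658 in edgeR. Among calls by C2C12 partner, 63.4% were higher with TMM, 41.8% with library size only, 43.1% with upper quartile and 87% with DESeq2; the widest move of the median of all genes was -0.0303 log2, with library size only. For 64 called differences of 42 genes from the other lists, not all described above, 832 values kept the threshold and 63 lost it. Of these, 0 reversed under the alternatives, which were added for them after seeing the data. Depth limits HOXA6 and HOXD4 most among the calls held, with as few as 5 and 10 reads in a well. No paired analysis by replicate number was possible because the labels give none; the additive fit pairs wells by line instead, and 1 line term alone drops that pairing.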
